A study of Mus musculus with 10 samples.

Results

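The vessel-linked miRNAs described here are the products of the miR-126 locus (miR-126a-3p, miR-126a-5p and miR-126b-3p) and the pair miR-221-3p and miR-222-3p. They were taken by name from a table of 1340 mature miRNAs in the RPE/choroid/sclera of the mouse eye. All 5 were found, and 4 of them are among the 588 miRNAs with a mean signal of at least 10. The exception, miR-126b-3p, lay below that filter. The tissue holds the retinal pigment epithelium (RPE), the vascular choroid and the fibrous sclera, and came from C57BL/6J mice of wild type genotype, collected at postnatal day 34. Each animal had worn a goggle with a -20 dioptre lens over one eye from postnatal day 24 for 10 days, which induces myopia, while the contralateral eye had no lens. Each library is labelled left or right and carries a title number (61, 64, 65, 66 or 68) that recurs once on each side, and the goggled eye is not named. The 2 groups used here are therefore 5 left and 5 right eyes of the same strain, genotype and age, and both may hold goggled eyes. If the goggle was worn on different sides, this contrast does not measure the lens. The extract protocol speaks of retinae, which is at odds with the RPE/choroid/sclera of the tissue field.

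The miR-126 hairpin lies inside Egfl7, a gene of endothelial cells, and miR-126 is known as an endothelial miRNA. Its 3p arm represses Spred1 and Pik3r2, inhibitors of the signal from the vascular endothelial growth factor receptor, and loss of miR-126 leaves leaky vessels in mice. Platelets and other blood cells also carry it. The miRNAs miR-221 and miR-222 are made from 1 precursor transcript, share a seed, and repress Kit and the cell cycle inhibitor Cdkn1b. They are known to restrain endothelial sprouting and to favour growth of vascular smooth muscle.

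The sequences show how the 5 are related by locus and seed. Mature entries were found in RefSeq (GRCm38.p6) for 4 of the 5, and miR-126a-5p had none. They are printed 5′ to 3′ with the seed, bases 2 to 8, in capitals.
mmu-miR-126a-3p: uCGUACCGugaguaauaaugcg
mmu-miR-126b-3p: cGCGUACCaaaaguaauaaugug
mmu-miR-221-3p: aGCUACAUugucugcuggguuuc
mmu-miR-222-3p: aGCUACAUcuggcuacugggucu
The last pair shares the seed GCUACAU and 8 leading bases, and 11 of the 23 positions are identical without gaps. Of the mouse miRNAs in the RefSeq table, miR-1928 is the 1 other with this seed, and it is not analysed here. Neither miR-126a-3p nor miR-126b-3p shares its seed with another entry.

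Both strands of the miR-126 locus are annotated as hairpins, shown here with the 3p arm in capitals because the strands differ so widely in signal.
Mir126a: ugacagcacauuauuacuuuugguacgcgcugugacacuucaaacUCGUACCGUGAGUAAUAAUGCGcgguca
Mir126b: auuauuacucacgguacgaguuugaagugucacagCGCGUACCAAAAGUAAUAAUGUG
The Mir126b hairpin is the reverse complement of a stretch of Mir126a. Mir126a lies on the plus strand at chr2:26591357-26591429 and Mir126b on the minus strand at chr2:26591363-26591420. In GENCODE M21, 9 transcripts of Egfl7 span the site. It is intronic in 8 and falls in an exon of the ninth, which has a retained intron. In the same annotation the site also lies within the span of the gene Gm20532. Mature miR-126a-3p covers chr2:26591402-26591423, and miR-126a-5p has a deposited start of 26591365 and stop of 26591386 on the same strand. The deposited stop is 1 base past the RefSeq end for the other 4 members. Mir221 (chrX:19146294-19146388) and Mir222 (chrX:19146893-19146971) both lie on the minus strand, 504 bases apart, outside any other annotated gene. Their mature 3p arms are at chrX:19146307-19146329 and chrX:19146901-19146923.

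Library sums of the deposited signal were nearly equal, and depth is unknown. The same values recur at the same ranks in different libraries, so an abundant miRNA moves in steps. At the median rank of miR-126a-5p the next step up was 16.4% higher, and at that of miR-126a-3p it was 8.56% higher. For miR-221-3p and miR-222-3p the steps were finer, at 1.57% and 1.18%. Right eye 68 stood apart from the rest, with 1332 k (k for 1000 units of signal) of summed retina and neuron miRNAs against 190 to 474 k in the other libraries. This list rests largely on miR-182-5p, which averaged 277019 in left and 404029 in right eyes, beside sums of 322 and 473 k. The pigment epithelium miRNAs miR-204-5p and miR-211-5p summed to 1959 to 1989 k in the 10 libraries, and both were present throughout, as were fibroblast and smooth muscle miRNAs. The value of miR-204-5p was 1931810 in every library, in a signal where rank sets the value. The narrow range of the pigment epithelium sum is therefore no measure of how even that tissue was. The labels give no sequencing run or day.

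Levels are given first, as normalised signal. The miR-126a-5p arm was the most abundant of the group, ranking 10 to 16 among all miRNAs with 1.19% to 2.12% of the signal of a library. In left eyes its signal was 140793, 153995, 179294, 153995 and 194838 for numbers 61, 64, 65, 66 and 68. In right eyes it was 153995, 140793, 194838, 251975 and 194838 in the same order. Right eye 66 was the highest library, and the other 9 spanned 140793 to 194838 with both sides mixed.

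The companion arm miR-126a-3p, a repressor of Spred1, ranked 24 to 31. In left eyes its signal was 60162, 60162, 65310.2, 60162 and 71843 for numbers 61, 64, 65, 66 and 68. In right eyes it was 65310.2, 57345, 65310.2, 89670.5 and 57345. Again right eye 66 was highest, left eye 68 came next, and the sides overlapped. Only 5 distinct values occurred among the 10 libraries for each of the 2 arms.

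The opposite strand gave almost nothing. A value of 0 is listed for miR-126b-3p in 7 libraries, and the others were 0.480 in right eye 61, 1.42 in left eye 65 and 1 in right eye 68. Its partner miR-126b-5p was also at 0 in 7 libraries and reached at most 1.61. The sources used here do not state whether counting used strand, and miR-126b-3p covers all 21 positions of miR-126a-5p on the other strand. The deposited values of these overlapping arms were nonetheless far apart in every library.

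The shared-seed pair was lower by more than an order of magnitude. For miR-222-3p, left eyes gave 4953, 3849.8, 3303, 4367 and 2473 for numbers 61, 64, 65, 66 and 68, and right eyes gave 4256, 4367, 3085, 3037 and 2754. Both eyes of number 68 were lowest, and the highest 5 values were in numbers 61 and 64 and in left eye 66. For miR-221-3p, left eyes gave 3303, 3085, 2956, 3085 and 2256, and right eyes gave 3303, 3265, 2373, 2428 and 1729. Right eye 68 was lowest and left eye 68 next, while both eyes of number 61 tied for the highest value. The plot of signal by eye pair shows the same values.

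**Figure D1:**
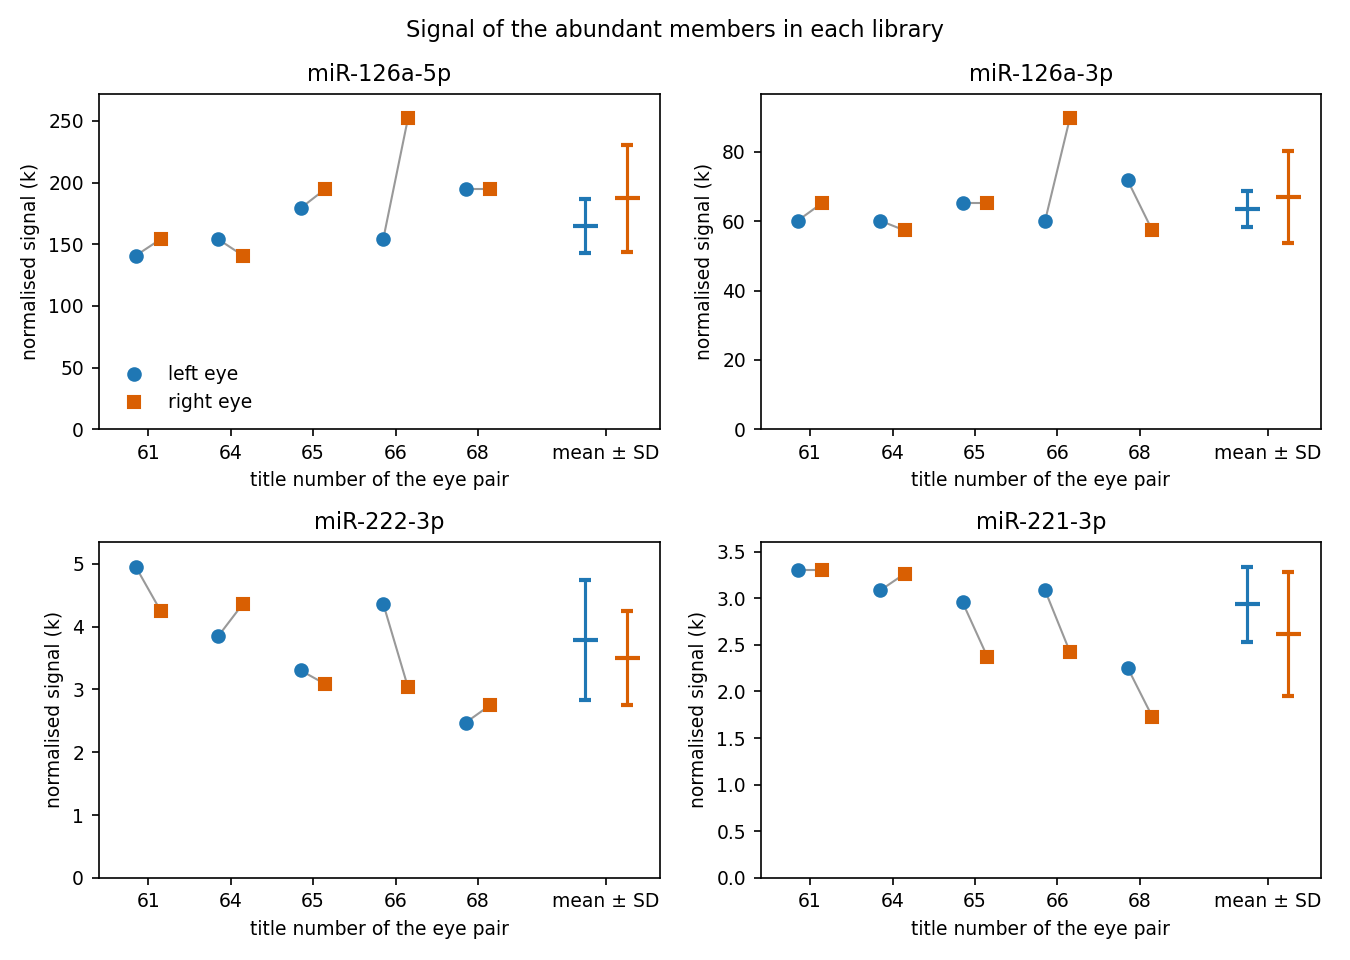
Normalised signal (k, 1000 units) of the 4 members past the filter, by title number, with left eyes as circles, right eyes as squares, a line joining the eyes of a number, and the mean ± SD of each side (n = 5). Right eye 66 is the highest point in both miR-126a panels, at 251975 and 89670.5, and number 68 holds the lowest pair in both lower panels.

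The order of mean levels was miR-126a-5p at 175935 ± 34608 (SD, n = 10), miR-126a-3p at 65262 ± 9675, miR-222-3p at 3644 ± 826, miR-221-3p at 2778 ± 544 and miR-126b-3p at 0.290 ± 0.517. All are mature miRNAs of similar length, so the signals were not divided by length. The ranges of the 2 arms of miR-126a did not overlap, nor did either overlap with that of miR-222-3p. The ranges of miR-222-3p (2473 to 4953) and miR-221-3p (1729 to 3303) overlapped, although miR-222-3p was the higher in each of the 10 libraries. Within the whole table miR-126a-5p stood between let-7g-5p (209304 ± 27507) and miR-26b-5p (158971 ± 32265), with let-7c-5p (267199 ± 122256) and miR-125b-5p (154331 ± 13525) next. Around miR-126a-3p stood miR-16-5p (73105 ± 2254) and miR-30c-5p (63160.1 ± 16701), then miR-181b-5p (79894 ± 13728) and miR-148a-3p (62529 ± 13394). Near miR-222-3p were miR-142a-5p, miR-872-5p, miR-532-5p and miR-410-3p, with means of 3438 to 3823. Near miR-221-3p were miR-136-5p, miR-145a-3p, miR-574-3p and miR-195a-5p, with means of 2613 to 2869. The ranges of all these neighbours overlapped with that of the member beside them.

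Right eyes were then compared with left eyes, the 1 contrast between groups that the labels allow. Neither miR-126a arm, miR-221-3p nor miR-222-3p passed the test, and the sides overlapped for each. In limma with the title number as a block, 0 of the 4 members had an adjusted p under 0.05, where 0% of the 588 miRNAs tested were called. An unadjusted p under 0.05 was found for 0 of the 4 members and for 13 of the 588 (2.21%). The labels do not say that libraries came from separate animals beyond the shared number. With the block, these p-values rest on the spread of the right to left difference over these title numbers only.

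Left eyes averaged 164583 ± 21920.0 for miR-126a-5p and right eyes 187288 ± 43499 (SD, n = 5 a side). The log2 difference was 0.17 with SE 0.12 and adjusted p = 0.967 in limma. It was higher in the right eye in 3 pairs, tied in 1 and lower in 1. In number 66 the right eye exceeded the left by 97980.0, and without that number the log2 difference was 0.030. For miR-126a-3p the means were 63528 ± 5155 and 66996 ± 13286, with a log2 difference of 0.060, SE 0.12 and adjusted p = 0.967 in limma. It was higher in 2 right eyes, lower in 2 and tied in 1, and without number 66 the direction turned, at -0.069.

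Left eyes averaged 2937 ± 401 for miR-221-3p and right eyes 2619 ± 666, with a log2 difference of -0.19, SE 0.098 and adjusted p = 0.967 in limma. The right eye was lower in 3 pairs, higher in 1 and tied in 1. For miR-222-3p the means were 3789 ± 957 and 3499.6 ± 753, a log2 difference of -0.10 with SE 0.12 and adjusted p = 0.967 in limma. The right eye was lower in 3 pairs and higher in 2, and without number 66 the difference was 0.00489.

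The 95% intervals of the right to left ratio give the size that could have been missed. They ran from 0.922 to 1.37 for miR-126a-5p, 0.851 to 1.28 for miR-126a-3p, 0.745 to 1.03 for miR-221-3p and 0.769 to 1.13 for miR-222-3p. A 1.5-fold difference lay outside each of the 4 intervals, as it did for 340 of the 588 miRNAs (57.8%).

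The passenger arms of the X-linked pair were also measured. For miR-221-5p the log2 difference between right and left was -0.047 (SE 0.12), and for miR-222-5p it was 0.23 (SE 0.13), each with adjusted p = 0.967 in limma. The latter was higher in 4 of 5 right eyes, at 58.5 ± 11.0 in left and 68.3 ± 10.3 in right eyes, opposite in sign to its own 3p arm. The difference between these arms was not tested.

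Other miRNAs linked to vessel growth were compared in the same way. Of a list of 32 such miRNAs, 31 passed the filter, 14 with a log2 difference above 0 (right minus left) and 17 below. None passed in limma, either adjusted or with an unadjusted p under 0.05. The median log2 difference of the list was -0.00411, beside 0.019 over all 588. The most abundant were miR-27b-3p, which favours endothelial sprouting, miR-378a-3p, miR-27a-3p, miR-16-5p, which represses vascular endothelial growth factor, and miR-92a-3p, which restrains vessel growth. Their log2 differences were -0.13, -0.17, -0.0077, -0.028 and -0.041 in that order. The difference of miR-27b-3p came from right eye 68 alone, which had 403594 where the other 9 libraries all had 628392. The plot of side differences shows the whole list.

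**Figure D2:**
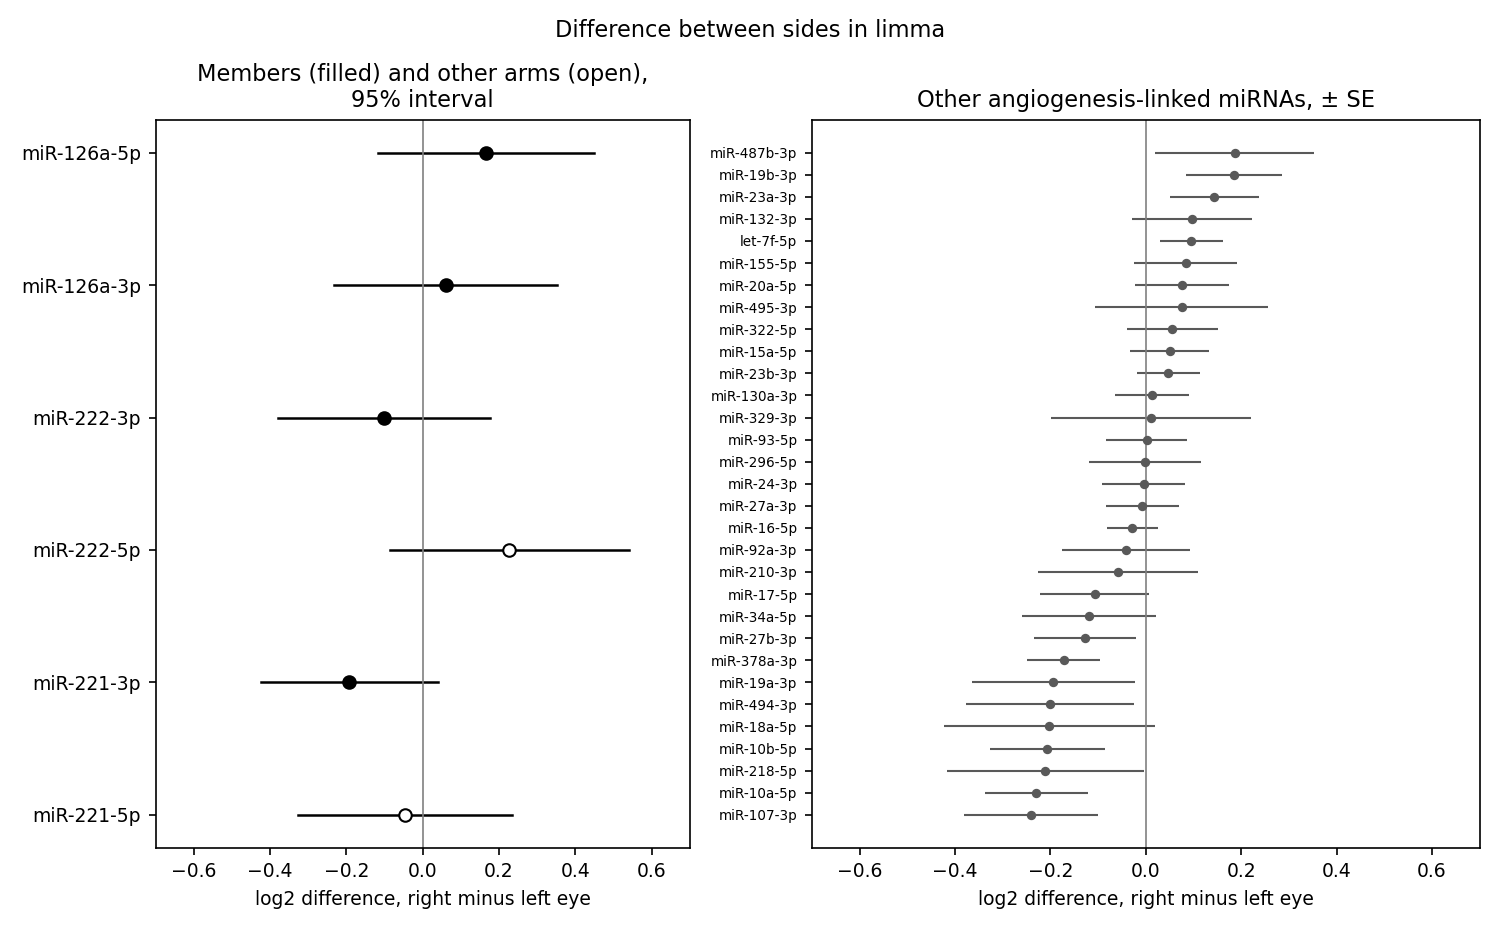
Log2 difference of right minus left eyes in limma, with the 4 members (filled) and 2 passenger arms (open) and their 95% intervals at left, and the 31 other angiogenesis-linked miRNAs with their SE at right. The 6 intervals at left all include 0 and stay within -0.42 to 0.54.

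Between title numbers no member passed the test. Both X-linked miRNAs had their highest mean in number 61 and their lowest in number 68, and a high in number 61 or 64 with a low in number 68 was seen for 159 of the 588 miRNAs (27.0%). In limma an F test over the 5 numbers, with side as a covariate, called 7 of the 588 miRNAs (1.19%), and 0 of the 4 members. That count of 7 was 0 without any 1 of the numbers 61, 64 and 68, 1 without number 65 and 22 without number 66, and 0 without right eye 68 alone. Number means are printed as untransformed signal, while log2 ranges were taken from means of log2 signal and can differ slightly. For miR-221-3p the number means ran from 1993 in number 68 to 3303 in number 61, with a log2 range of 0.74 (adjusted p = 0.119 in limma). For miR-222-3p they ran from 2613 to 4604 in the same numbers, a log2 range of 0.81 (adjusted p = 0.155 in limma). An unadjusted p under 0.05 was found for these 2 of the 4 members, beside 137 of the 588 miRNAs (23.3%). Over all miRNAs, 210 had a larger range than miR-222-3p. Without number 68 the ranges of miR-221-3p and miR-222-3p were 0.32 and 0.52. The passenger arm miR-221-5p was likewise lowest in number 68 and highest in number 61, with number means from 171 in number 68 to 293 in number 61 (log2 range 0.77, adjusted p = 0.187 in limma).

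For the miR-126a arms the log2 range was 0.42 for miR-126a-5p (adjusted p = 0.342 in limma). Its untransformed means ran from 147394 in numbers 61 and 64 to 202985 in number 66. The log2 range was 0.32 for miR-126a-3p (adjusted p = 0.745 in limma), and 0.15 without number 66. The gap of 97980.0 between the eyes of number 66 for miR-126a-5p exceeded the range of the number means, 55591. The median log2 range over all 588 miRNAs was 0.67 and that of the 31 angiogenesis-linked miRNAs 0.45, and none of the 31 passed this F test after adjustment. An unadjusted p under 0.05 was found for 4 of the 31, beside 23.3% of all miRNAs.

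The 4 lowest values of miR-221-3p, up to 2428, were in right eyes 65 and 66 and both eyes of number 68. Those 4 libraries also held the 4 highest values of miR-126a-5p, from 194838 up. The number 4 was chosen after the values were seen, and the order within the 4 did not match, since miR-126a-5p was highest in right eye 66 and miR-221-3p lowest in right eye 68. The next values were 2956 for miR-221-3p and 179294 for miR-126a-5p, both in left eye 65. The same 4 libraries held the 4 lowest values of miR-222-3p. Pearson's r of log2 signals was taken as a description over 10 libraries from 5 numbers. It was -0.73 between miR-126a-5p and miR-221-3p, and -0.82 between miR-126a-5p and miR-222-3p. Among 586 other miRNAs, miR-221-3p ranked 546 and miR-222-3p ranked 572 in likeness to miR-126a-5p. In likeness to miR-221-3p and miR-222-3p, miR-126a-5p ranked 519 and 554. Other miRNAs therefore had a still more negative r in each case. For the companion arm miR-126a-3p, r was -0.21 with miR-221-3p and -0.46 with miR-222-3p. Without right eye 66 these values were -0.10 and -0.50, without right eye 68 -0.70 and -0.67, and without both -0.76 and -0.84. The points share a normalisation in which rank sets the value, and eyes that share a number are taken to be of 1 animal. In 9 of the 10 libraries miR-126a-5p lay on the other side of its own mean from both X-linked members, the exception being left eye 65. How many other miRNAs did so was not counted.

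Within a locus the signs were positive. The value was 0.79 between the arms of miR-126a, 0.51 without right eye 66, 0.93 without right eye 68 and 0.84 without both. It was 0.86 between miR-221-3p and miR-222-3p. Among 586 other miRNAs, miR-222-3p ranked 31 in likeness to miR-221-3p, and miR-221-3p ranked 14 in likeness to miR-222-3p. Between miR-221-3p and its passenger arm r was 0.63, and between miR-222-3p and its passenger arm 0.53. These passenger arms ranked only 121 and 139 of the 586, so many miRNAs of other loci were more alike. The arm miR-221-5p had a higher r with miR-222-3p, 0.66, than with its own 3p arm. The plot of deviations shows these values by library.

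**Figure D3:**
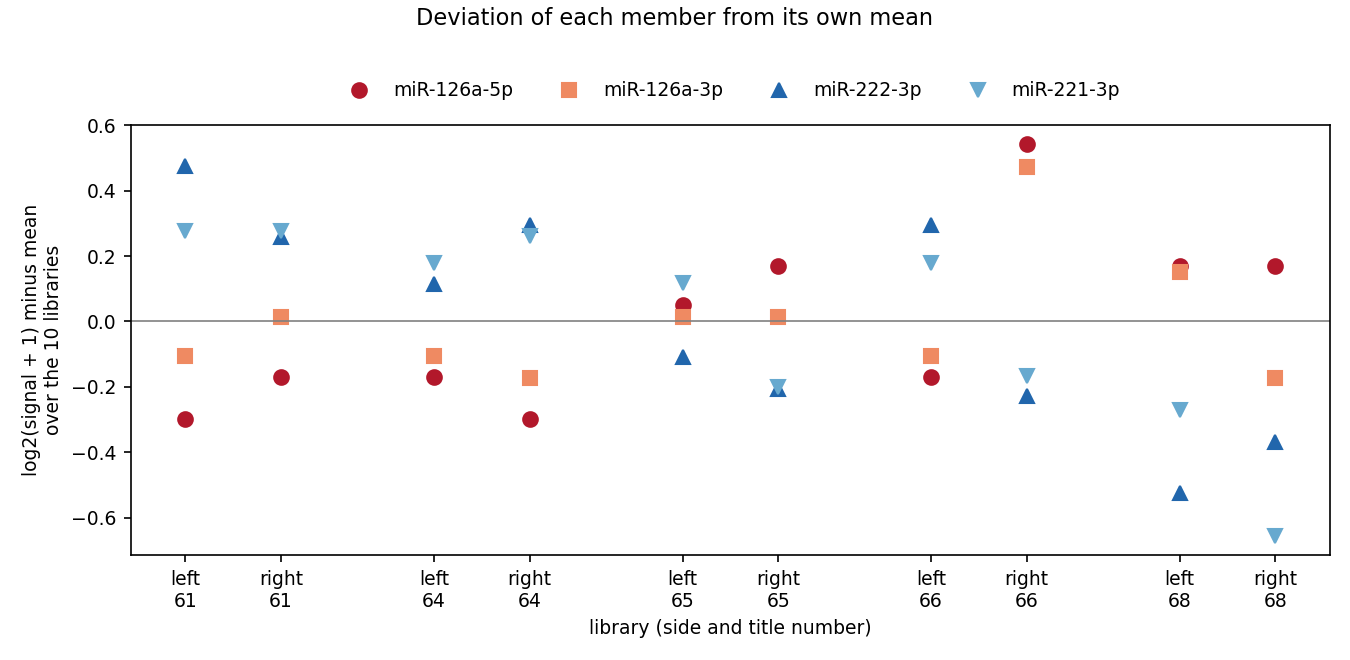
Deviation of log2(signal + 1) from its mean over the 10 libraries for the 4 members past the filter, by library. The miR-126a-5p points lie above 0 in both eyes of numbers 65 and 68 and in right eye 66, and both X-linked miRNAs lie below 0 in those libraries except left eye 65, where miR-221-3p lies above.

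Marker lists of other cell types also differed in those libraries. In right eye 66, where both miR-126a arms peaked, the fibroblast list (137 k), the leukocyte list (24.0 k) and the erythroid list (112 k) had their highest sums of the 10 libraries. The retina and neuron list (190.1 k) and the surface epithelium list (25.7 k) had their lowest there. Over the other 9 libraries these lists ran from 102 to 135 k, 18.8 to 23.6 k, 51.6 to 111 k, 210.2 to 1332 k and 61.1 to 246 k in the same order. The smooth muscle and pericyte list was 895 k in right eye 66, 894 k in right eye 65 and 949 k in left eye 68, and 747 to 799 k in the other 7. Of this list miR-143-3p averaged 789622 in left and 798181 in right eyes, beside sums of 799 and 807 k. Of the fibroblast list miR-199a-3p averaged 96899 in left and 98668 in right eyes, beside sums of 118 and 123 k. In the surface epithelium list miR-184-3p averaged 140470 in left and 96398.5 in right eyes, beside sums of 158 and 105 k. The striated muscle list was 78.5 k in right eye 66 and 25.9 to 104 k over all libraries. All 40 members of the 8 lists were above 0 in at least 1 library. Members of a list did not all move together. By number means of log2 signal, miR-451a, miR-144-3p and miR-144-5p of the erythroid list were highest in number 68. Its miR-486a-5p and miR-486b-5p were highest in number 61 and lowest in number 68. The erythroid sum was likewise lowest in right eye 68 (51.6 k). In left and right eyes miR-144-3p averaged 223 and 244 and miR-144-5p 405 and 447, beside erythroid sums of 87.2 and 82.7 k. Those sums therefore say little about either miR-144 arm. In the leukocyte list miR-142a-3p, miR-142a-5p, miR-223-3p and miR-150-5p were highest in number 68, where miR-155-5p and miR-146a-5p were lowest. The part of these cell types in the values of the members was not tested. In bulk tissue, more cells of a type and more of a miRNA per cell cannot be told apart.

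The miRNAs whose log2 signal over the 10 libraries was most like that of a member were named by Pearson's r, with no test and leaving out the members themselves. For miR-126a-5p these were miR-379-5p (0.94), miR-199a-5p (0.92) and miR-744-3p (0.90), each highest in right eye 66. For miR-126a-3p they were miR-1306-5p (0.86), miR-574-3p (0.84) and miR-322-5p (0.79). The first 2 of these fell to 0.64 and 0.63 without right eye 66, and the third was 0.84. For miR-221-3p they were miR-30b-3p (0.95), miR-676-3p (0.94) and let-7a-5p (0.94), each lowest in right eye 68. For miR-222-3p they were miR-3057-5p (0.96), miR-143-5p (0.93) and miR-744-5p (0.92). Each set was picked from 586 others over 10 libraries. In the order for miR-126a-5p its companion arm ranked 36, and in that for miR-126a-3p miR-126a-5p ranked 3.

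Ratios were then taken within libraries. The 5p to 3p ratio of signals was 2.34, 2.56, 2.75, 2.56 and 2.71 in left eyes 61, 64, 65, 66 and 68, and 2.36, 2.46, 2.98, 2.81 and 3.40 in the right eyes. The 5p arm was the higher in all 10 libraries, and right eye 68 had the highest ratio. Over the libraries the SD of the log2 ratio was 0.16, ranking 8 from the smallest of 158 hairpins with both arms past the filter, whose median was 0.40. The 158 were not matched for level, and each miR-126a arm took only 5 distinct values. That rank therefore does not show a ratio steadier than that of hairpins of like level. Right eye 66, the highest library for both arms, had a ratio of 2.81, inside the range of the others. It averaged 2.58 ± 0.160 over left and 2.80 ± 0.420 over right eyes (SD, n = 5 a side), and was higher in 4 of 5 right eyes. The mean log2 difference was 0.11 with SE 0.065, and the exact two-sided sign-flip permutation gave p = 0.1875, in a design whose smallest p is 0.0625.

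The X-linked hairpins favoured the 3p arm. The ratio of miR-221-3p to miR-221-5p was 13.3 ± 2.53 (SD, n = 10), between 10.3 and 18.6. The ratio of miR-222-3p to miR-222-5p was 58.1 ± 11.7, between 39.2 in right eye 66 and 79.0 in left eye 61. These ranges did not overlap.

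The ratio of miR-221-3p to miR-222-3p was 0.667, 0.801, 0.895, 0.706 and 0.912 in left eyes 61, 64, 65, 66 and 68, and 0.776, 0.748, 0.769, 0.799 and 0.628 in the right eyes. It was highest in the left and lowest in the right eye of number 68. Left eyes averaged 0.796 ± 0.110 and right eyes 0.744 ± 0.0675 (SD, n = 5 a side), with a log2 difference of -0.092 and SE 0.14. The exact two-sided sign-flip permutation gave p = 0.625, with the right eye higher in 2 of 5 pairs. Without number 68 the difference turned to 0.020. The plot of ratios shows both.

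**Figure D4:**
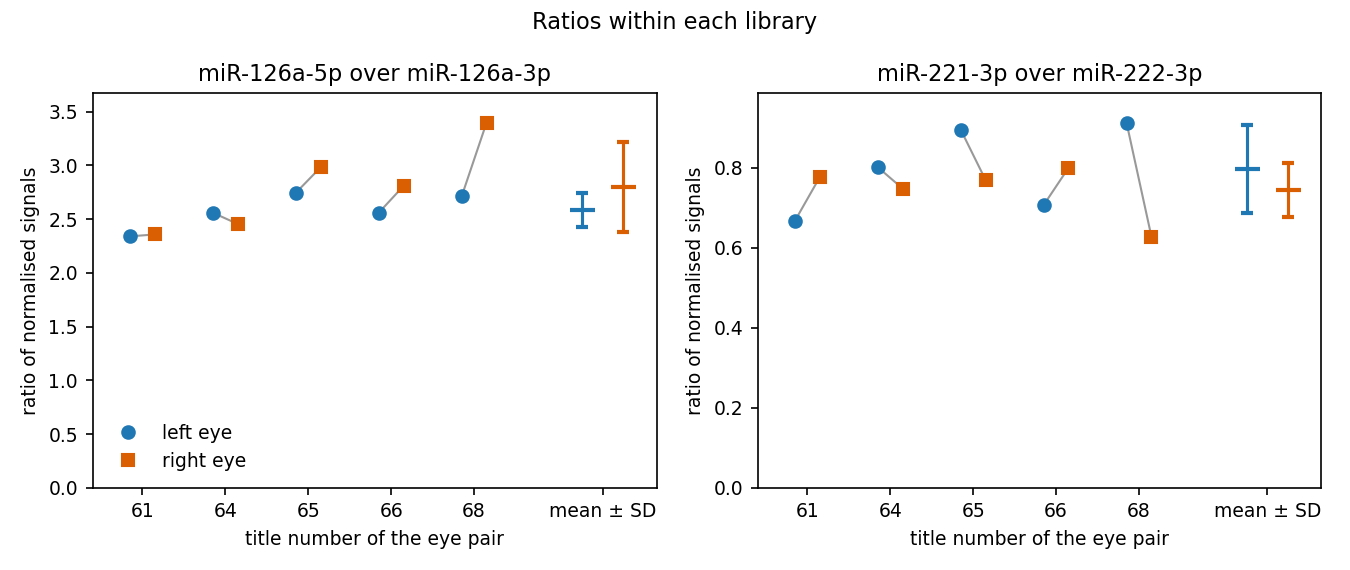
Ratios of normalised signals within each library, miR-126a-5p over miR-126a-3p at left and miR-221-3p over miR-222-3p at right, by title number, with left eyes as circles, right eyes as squares and the mean ± SD of each side (n = 5). The arm ratio of miR-126a lies between 2.34 and 3.40, and the pair ratio between 0.628 and 0.912, with number 68 at both ends of the latter.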

How the data were processed

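Per the labels' protocols, small RNA of the RPE/choroid/sclera was sequenced from TruSeq small RNA libraries, 5 from left and 5 from right eyes. Per the submitters' processing notes, the authors used Bowtie and Partek with GRCm38 (mm10). Versions, annotation, strand use and the normalisation method are not given in the sources used here. The deposited values are a normalised signal, not counts. Only 7.31% of values above 0 are whole within 0.001, and depth is unknown, so count models were not used.

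Values were analysed as log2(signal + 1) for the 588 miRNAs with a mean of at least 10, two-sided, using limma 3.58.1 (R 4.3.3, trend on) and Benjamini-Hochberg adjustment over all 588 at 0.05. Differences on that scale understate the change of low miRNAs. The title number was a block because the protocol compares an eye with the contralateral eye. The correlation of eyes that share a number, each taken as a deviation from its side, was 0.12, 0.45, 0.01, -0.13 and 0.28 for numbers 61, 64, 65, 66 and 68. Differences between numbers used limma's F test. Ratios were compared by exact sign-flip permutation of 5 pairs. The fits were also run on simulated data with independent noise for each value. That noise lacks the steps of the deposited signal, and no result here rests on it. The alternatives were no block, other pseudocounts, filters and scalings, no trend, and each number left out. Named miRNAs are the members, other arms of their hairpins, the 3 other miRNAs most like each member, the 5 most abundant or any called of the angiogenesis-linked list, and 2 neighbours in level on either side. Some miRNAs of the cell type lists are named as well. The members and lists were chosen with earlier results of these data known.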

Additional observations from a re-analysis of the deposited data

Results flagged for a closer look

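In 1 of 16 checks on the log2 scale, 1 eye stood far from the remaining 4 on its side. This was the ratio of miR-221-3p to miR-222-3p in right eye 68, at 0.628 against 0.748 to 0.799 in the other right eyes. With signals left untransformed, a check chosen after the data were seen, 2 of 16 did. One was miR-126a-3p in right eye 66, at 89670.5 against 57345 to 65310.2. The other was miR-221-5p in right eye 61, at 320.9 against 163 to 200.4. Chance alone gives about 1 in 20 such checks.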

How the results depend on the processing

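Of 156 recomputed values, 143 were labelled as unchanged. For side differences the label needed the same direction and the same side of the threshold. Ranges between numbers are always positive, so only their side of the threshold could change. For ratios only the direction was compared, and counts had to stay within 1.5 times. Normalising by quantiles again left the log2 differences of the members as they were, in a signal where rank already sets the value. In limma no member had an adjusted p under 0.05 in either comparison, and the count of miRNAs called between sides was 0, under each alternative run. Without the replicate block, the log2 differences could not change, since each number recurs once on each side. The adjusted p of each member was then 0.997 in limma. Nor could the trend or the filters move these differences, so an unchanged direction under those settings was fixed in advance. With single numbers left out, the side difference ran from -0.069 to 0.16 for miR-126a-3p, 0.030 to 0.24 for miR-126a-5p, -0.26 to -0.15 for miR-221-3p and -0.17 to 0.00489 for miR-222-3p. The log2 ratio of miR-221-3p to miR-222-3p ran from -0.17 to 0.020, and the arm ratio of miR-126a from 0.051 to 0.15. The count of miRNAs that differ between numbers, 7 in the reported fit, was the least stable. It was 26 without side as a covariate, 23 with a mean signal of at least 100, 12 with median-ratio scaling and 0 without the trend. It ran from 0 to 22 with single numbers left out, and was 0 without right eye 68, an alternative added after seeing the data, as was leaving out right eye 66. The cause was not tested. Depth could not be weighed, as the deposited signal gives none.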
